A study of Homo sapiens with 9 samples.

Results

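The genes described here encode the protein subunits of the mitochondrial ribosome. Members are the protein-coding genes whose symbol is MRPL or MRPS followed directly by a number, with or without a final A, B or C. The rule found 78 of the 36601 genes in the count files, 49 MRPL genes and 29 MRPS genes, and used no expression value. LX2 is an established human hepatic stellate cell line, the collagen-producing cell type of the liver. Every group was transfected with 20 nM siRNA by lipofection and kept in serum-containing medium for 7 days: siNT with a non-targeting reagent, siYAP with one directed at YAP and siTAZ with one directed at TAZ. Each group has 3 libraries. YAP, from the gene YAP1, and TAZ, from WWTR1, are paralogous coactivators of transcription that the Hippo pathway restrains, and the comparisons ask what losing each does to the stellate cell transcriptome. All 9 libraries come from the same line.

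The mitochondrial ribosome translates the few messenger RNAs that the mitochondrial genome encodes, all of them for subunits of the oxidative phosphorylation complexes. Its large subunit (MRPL proteins) forms peptide bonds and releases the growing chain at the inner membrane, and its small subunit (MRPS proteins) binds and decodes the messenger RNA. All of these proteins are made from nuclear genes and imported. Some have a counterpart in bacterial ribosomes and others occur in mitochondria only. Symbols and structures do not match throughout: MRPS18A and MRPS30 sit in the large subunit, and MRPS36 is now regarded as a component of the 2-oxoglutarate dehydrogenase complex.

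The libraries held 16498508 to 18752805 counts in genes. CPM here are counts scaled to a common library size by TMM, a method that aligns libraries on the bulk of their genes, and 3 counts correspond to 0.157 to 0.177 CPM. The siRNA targets fell as labelled: YAP1 changed by -2.99 (log2) after siYAP, and WWTR1 by -2.70 after siTAZ. YAP1 was also lower after siTAZ (-0.30) and WWTR1 higher after siYAP (0.29). VIM and COL1A1 were abundant in every library, while DES, another stellate marker, and the defining markers of hepatocytes (ALB, TTR) and epithelium (EPCAM, KRT19, CDH1) were at or near 0. Of 7 stellate markers tested, 4 rose and 3 fell after siYAP (COL1A1 by -1.03 and PDGFRB by -1.49, COL1A2 by 1.07 and TIMP1 by 1.35), and 3 rose and 3 fell after siTAZ (ACTA2 by 1.66 and COL1A2 by 1.42 among the rises). Some scarce markers of other cell types moved with the groups. The 4 hepatocyte markers summed to 1.73 to 2.004 CPM after siNT, 12.8 to 15.9 CPM after siYAP and 0.704 to 1.91 CPM after siTAZ, nearly all from SERPINA1, and the 3 endothelial markers to 6.28 to 7.13, 6.17 to 7.51 and 2.44 to 3.22 CPM. Within the endothelial list, PECAM1 rose (3.60) and CDH5 (-3.81) and VWF (-2.22) fell after siYAP, and CDH5 (-1.16) and VWF (-2.52) fell after siTAZ. The 3 leukocyte markers summed to 12.6 to 14.1, 11.5 to 14.6 and 8.96 to 11.4 CPM, mostly from CD14, which did not pass in either comparison. PTPRC fell after siYAP (-4.09) and siTAZ (-2.59), and CSF1R rose after siYAP (1.79). The part of such markers in the results was not tested. Labels call the 3 libraries of a group replicates without saying how the cultures were separated. The p-values therefore set a change against the spread between these libraries only, which the fit estimates partly by pooling over genes.

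**Figure D1:**
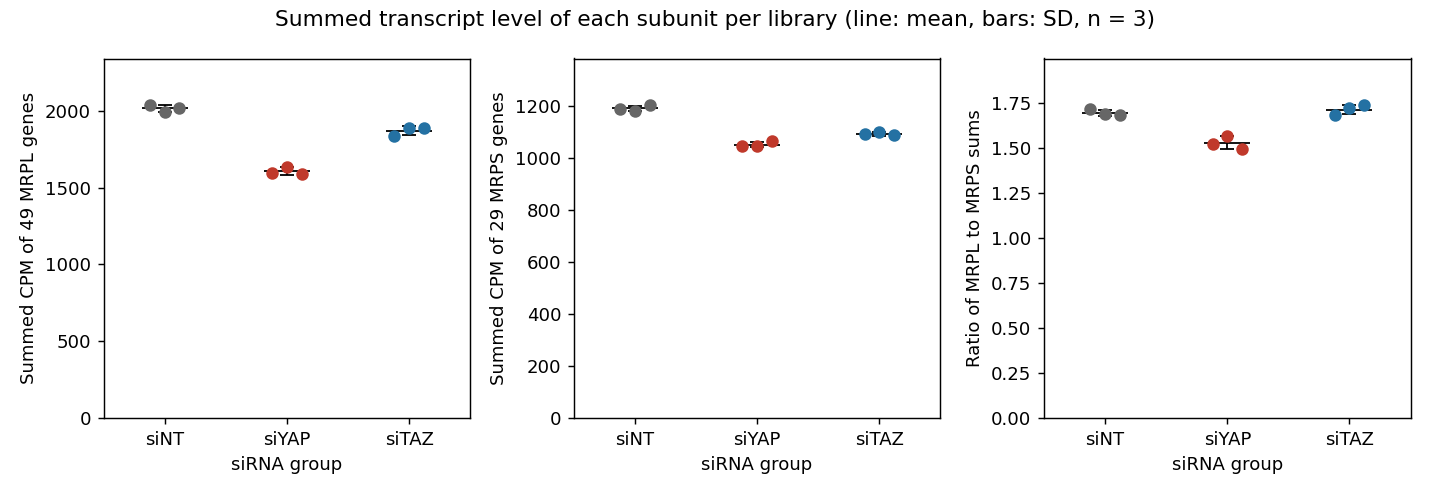
Each point is 1 library, and the y axes give the summed CPM of the 49 MRPL genes, the summed CPM of the 29 MRPS genes, and their ratio, with the mean and SD of 3 libraries. Summed MRPL transcripts were 1992 to 2034 CPM after siNT and 1591 to 1635 CPM after siYAP, with siTAZ between them at 1834 to 1890 CPM.

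After siYAP, transcripts of the large subunit fell in greater number than they rose, and so did those of the small subunit. Of 48 MRPL genes tested, 35 fell, 3 rose and 10 did not pass the test, with a median log2 change of -0.325. Of 29 MRPS genes, 14 fell, 3 rose and 12 did not pass, with a median of -0.211. A gene is called here at an adjusted p under 0.05 in the quasi-likelihood test of edgeR, adjusted by Benjamini-Hochberg over 15560 genes. Across all genes tested, 33.4% fell and 33.8% rose, with a median of 0.021, so the share of MRPL genes that fell (72.9%) lay well above the background and that of MRPS genes (48.3%) less far above it. Falls of over 1.5-fold were seen in 11 of 48 MRPL genes and 2 of 29 MRPS genes, against 16.8% of all genes. Together these were 13 of 77 members, near the share of all genes, and the MRPS genes lay below it. The difference between the subunits was not itself tested. The 77 tested members include 74 with a mean of 10 to 120 CPM, and 48 of these fell after siYAP, against 39.1% of the 7925 genes in that band.

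Summed over each subunit, the levels separated the groups. The MRPL sum was 2034, 1992 and 2018 CPM after siNT, 1592, 1635 and 1591 CPM after siYAP, and 1834, 1890 and 1885 CPM after siTAZ. The mean of siYAP was 20.3% lower than that of siNT and the mean of siTAZ 7.2% lower, and no library of one group overlapped another group. The MRPS sum was 1188, 1181 and 1202 CPM after siNT, 1046, 1045 and 1064 CPM after siYAP, and 1091, 1099 and 1087 CPM after siTAZ. As a ratio, the MRPL sum was 1.693 ± 0.017 (SD, n = 3) times the MRPS sum in siNT libraries, 1.527 ± 0.035 in siYAP and 1.711 ± 0.027 in siTAZ libraries. The siYAP ratios, 1.522, 1.565 and 1.495, lay below every siNT and siTAZ ratio, and siNT and siTAZ overlapped. Sums over the members carry no test. In bulk RNA, fewer cells of a kind and less RNA per cell cannot be told apart.

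After siTAZ the falls were fewer and smaller. Of 48 MRPL genes 9 fell, and of 29 MRPS genes 8 fell, with median log2 changes of -0.095 and -0.124. Across all genes 18.2% fell and 16.4% rose, so the MRPL share (18.8%) was at the background and the MRPS share (27.6%) above it. In the band of 10 to 120 CPM, 17 of 74 members fell, against 20.0% of genes. No member rose in edgeR, and none rose in DESeq2. At an unadjusted p under 0.05, edgeR counted 0 MRPL genes and 1 MRPS gene as higher. No member fell by over 1.5-fold at the threshold after siTAZ.

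Both knockdowns were then compared directly. With siTAZ set against siYAP, 25 of 48 MRPL genes were higher and 5 lower (median log2 difference 0.212), and 10 of 29 MRPS genes were higher and 6 lower (median 0.086). Across all genes 33.0% were higher and 33.2% lower in this comparison. The MRPL share that was higher after siTAZ (52.1%) lay above that background, and the MRPS share (34.5%) was close to it. All comparisons with siNT share the 3 siNT libraries.

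Splitting the subunits by origin, 23 of 30 MRPL genes with a bacterial counterpart fell after siYAP and 1 rose, and 12 of 18 tested mitochondria-specific MRPL genes fell and 2 rose. Among MRPS genes, 8 of 17 with a bacterial counterpart fell and 2 rose, and 6 of 11 mitochondria-specific genes fell and 1 rose. After siTAZ, the genes that fell were 7 and 2 of the MRPL classes and 6 and 2 of the MRPS classes, in that order. The classes were assigned from subunit nomenclature and not from sequence. MRPS28, which fell after siYAP (-0.35), was taken as mitochondria-specific, and that placement was not checked. Assigning subunits by structure instead of symbol left 35 of 50 large-subunit and 14 of 26 small-subunit genes lower after siYAP.

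**Figure D2:**
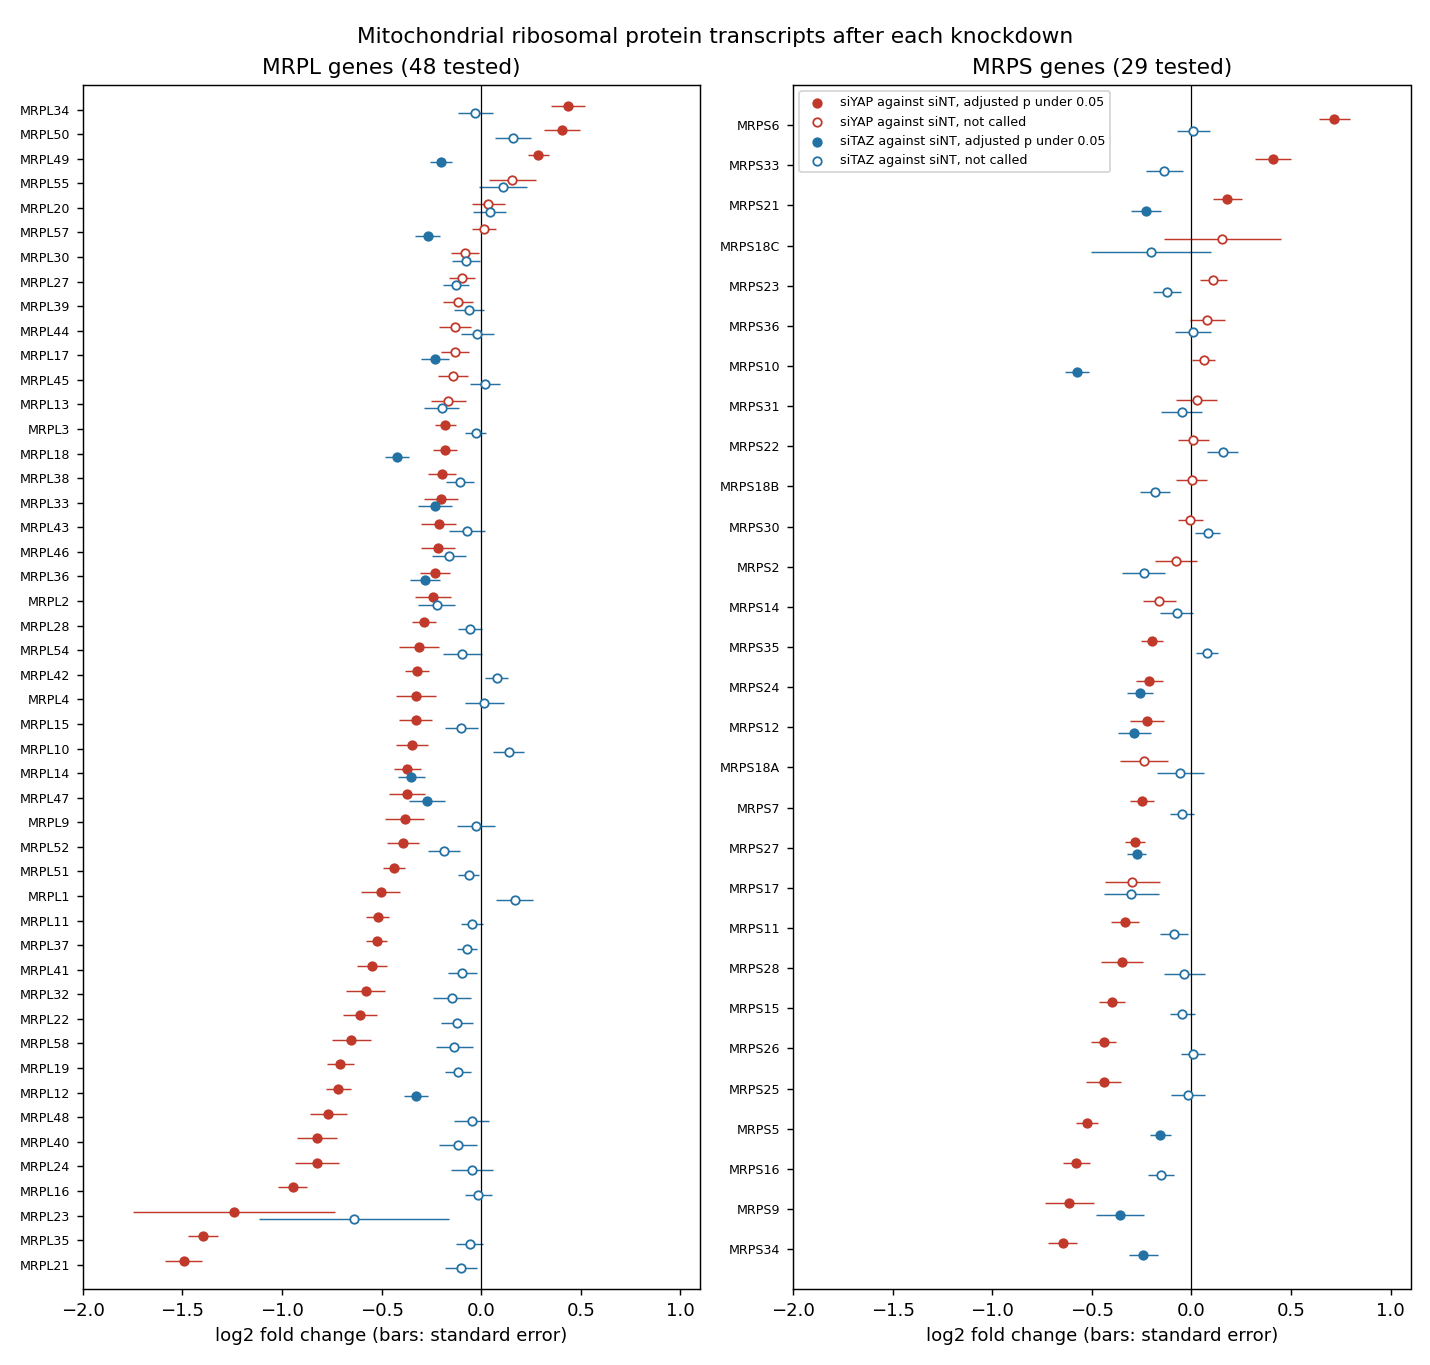
Each row is 1 member, the x axis is its log2 fold change against siNT with the standard error as a bar, red is siYAP, blue is siTAZ, and filled points passed the adjusted p of 0.05. The siYAP points of MRPL genes run from -1.49 (MRPL21) to 0.43 (MRPL34), and the siTAZ points of all tested members run from -0.64 (MRPL23, not called) to 0.17 (MRPL1, not called).

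The steepest fall was that of MRPL21, which encodes bL21m, a core large-subunit protein with a bacterial counterpart. MRPL21 (ENSG00000197345, GRCh38 chromosome 11, bases 68891276 to 68903835, minus strand) measured 34.7, 31.7 and 35.3 CPM after siNT, 12.5, 11.8 and 11.8 CPM after siYAP, and 31.8, 32.5 and 30.4 CPM after siTAZ. Every siYAP library lay below every other library. The change after siYAP was -1.49 ± 0.09 (log2 ± SE, adjusted p = 7.08e-23), and that after siTAZ was -0.10 ± 0.08 (adjusted p = 0.364). Directly, MRPL21 was higher after siTAZ than after siYAP by 1.39 ± 0.09 (log2, adjusted p = 2.48e-21).

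MRPL35 encodes bL35m, another conserved large-subunit protein, and lies on GRCh38 chromosome 2, bases 86199355 to 86213794, plus strand (ENSG00000132313). Its level was 55.1, 52.2 and 49.5 CPM after siNT, 18.8, 20.5 and 20.2 CPM after siYAP, and 50.9, 50.2 and 49.3 CPM after siTAZ. MRPL35 fell by 1.40 ± 0.07 on the log2 scale after siYAP (adjusted p = 7.08e-26) and did not pass the test after siTAZ (-0.06, adjusted p = 0.549). The siYAP libraries were again apart from the other 6.

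MRPL16 (uL16m, which lies near the peptidyl transferase centre in bacterial ribosomes) measured 51.2, 54.3 and 48.0 CPM after siNT, 26.6, 26.8 and 26.1 CPM after siYAP, and 51.9, 48.8 and 51.2 CPM after siTAZ. The change was -0.95 ± 0.07 after siYAP (adjusted p = 8.78e-19) and -0.01 after siTAZ (adjusted p = 0.899). The siNT and siTAZ ranges overlapped.

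The large-subunit genes are taken here by the place of their proteins in the ribosome. These groupings were not fixed lists and need not hold every protein of a place. Their calls are read against the 72.9% of MRPL genes and 33.4% of all genes that fell after siYAP. Around the exit tunnel, MRPL24 (uL24m) transcripts measured 22.8, 23.8 and 22.9 CPM after siNT, 14.9, 13.0 and 11.2 CPM after siYAP, and 24.0, 25.2 and 18.0 CPM after siTAZ, a change of -0.83 ± 0.11 after siYAP (adjusted p = 2.51e-09). MRPL22 (uL22m) changed by -0.61 (adjusted p = 4.55e-09). MRPL23 (uL23m) was near the detection limit at 0.943, 1.04 and 1.30 CPM after siNT and 0.426, 0.261 and 0.710 CPM after siYAP. Its change of -1.24 ± 0.51 passed the test (adjusted p = 0.0268), but without siNT replicate 2 or 3, or siYAP replicate 1 or 2, the adjusted p was between 0.0506 and 0.14. MRPL45, which anchors the ribosome to the inner membrane, did not pass the test (-0.14, adjusted p = 0.092).

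The lateral stalk recruits translation factors. MRPL12 (bL12m), the mobile stalk protein, measured 83.3, 73.1 and 85.7 CPM after siNT, 49.1, 51.4 and 46.7 CPM after siYAP, and 62.2, 66.8 and 63.7 CPM after siTAZ. It fell after both knockdowns, by 0.72 ± 0.06 after siYAP (adjusted p = 1.45e-16) and by 0.33 ± 0.06 after siTAZ (adjusted p = 6.5e-06), and the direct difference of 0.39 ± 0.06 also passed (adjusted p = 1.14e-07). The 3 groups did not overlap. MRPL10 (uL10m), the stalk base, changed by -0.35 and MRPL11 (uL11m) by -0.52 after siYAP (adjusted p = 0.000121 and 5.16e-12). After siTAZ neither passed, at 0.14 and -0.05 (adjusted p = 0.171 and 0.58).

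The central protuberance, the part of the large subunit that faces the small subunit's head, is built largely of mitochondria-specific proteins. MRPL40 measured 26.5, 25.6 and 22.9 CPM after siNT, 12.7, 14.7 and 14.96 CPM after siYAP, and 21.5, 21.6 and 26.0 CPM after siTAZ, a change of -0.82 ± 0.10 after siYAP (adjusted p = 1.25e-10). MRPL48 measured 29.2, 28.3 and 31.6 CPM after siNT, 16.2, 19.9 and 16.2 CPM after siYAP, and 28.0, 26.9 and 31.4 CPM after siTAZ, a change of -0.77 ± 0.09 (adjusted p = 6.71e-11). For both genes the siYAP libraries were the 3 lowest. MRPL58, a peptidyl-tRNA hydrolase built into the ribosome, changed by -0.65, MRPL46 by -0.22 and MRPL38 by -0.20 (adjusted p = 2.96e-08, 0.0199 and 0.0118). These genes did not pass after siTAZ, where the values ran from -0.16 (MRPL46) to -0.05 (MRPL48). MRPL18, another protein of the protuberance, fell after both knockdowns, by -0.18 after siYAP and -0.42 after siTAZ, as given below.

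MRPL19 (bL19m) also fell by over 1.5-fold after siYAP (-0.71, adjusted p = 1.76e-14), from 52.6 to 56.6 CPM after siNT down to 31.5 to 35.1 CPM. MRPL37, a mitochondria-specific protein, measured 104 to 110 CPM after siNT and 68.6 to 81.5 CPM after siYAP (-0.52, adjusted p = 2.65e-13). Of the 10 tested MRPL genes without a call after siYAP, the values ran from -0.17 (MRPL13) to 0.16 (MRPL55), and MRPL20, MRPL30 and MRPL39 were among them. MRPL27, the member with the highest level per kilobase of transcript after siNT (79.4 CPM per kb), was also not called, with 54.2, 54.1 and 62.4 CPM after siNT and 49.2, 54.6 and 55.9 CPM after siYAP.

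In the small subunit the steepest falls after siYAP were those of MRPS34 and MRPS9. MRPS34, a mitochondria-specific protein, measured 49.2, 43.3 and 48.7 CPM after siNT, 31.2, 27.9 and 31.2 CPM after siYAP, and 39.5, 41.9 and 38.0 CPM after siTAZ. It changed by -0.65 ± 0.07 after siYAP and by -0.24 ± 0.07 after siTAZ, with adjusted p = 1.19e-11 and 0.00609. MRPS9 (uS9m, a protein of the head) measured 14.8, 17.1 and 16.3 CPM after siNT, 9.79, 9.81 and 12 CPM after siYAP, and 11.9, 13.6 and 12.1 CPM after siTAZ. Its change was -0.61 ± 0.12 after siYAP (adjusted p = 1.09e-05) and -0.36 ± 0.12 after siTAZ (adjusted p = 0.0137). Without siNT replicate 2 or siTAZ replicate 1 the siTAZ call of MRPS9 was lost, at adjusted p = 0.0743 and 0.0595. MRPS16 (-0.58), MRPS5 (-0.52), MRPS25 and MRPS26 (both -0.44) and MRPS15 (-0.40) also fell after siYAP.

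MRPS10 (uS10m, a protein of the head, ENSG00000048544) showed the reverse order of knockdowns. This gene, on GRCh38 chromosome 6, bases 42206801 to 42217865, minus strand, measured 61.5, 63.0 and 64.2 CPM after siNT, 62.8, 66.0 and 68.2 CPM after siYAP, and 41.3, 42.7 and 42.6 CPM after siTAZ. The siTAZ libraries were the 3 lowest, and siNT and siYAP overlapped. The change was -0.58 ± 0.06 after siTAZ (adjusted p = 5.29e-12) and 0.06 ± 0.06 after siYAP (adjusted p = 0.359). Set directly against siYAP, siTAZ was lower by a log2 difference of -0.64 ± 0.06 (adjusted p = 1.84e-14).

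Besides MRPS10, 8 members called after siTAZ had a change of larger size there than after siYAP, whatever its sign: MRPL17, MRPL18, MRPL33, MRPL36, MRPL57, MRPS12, MRPS21 and MRPS24. The direct difference between the knockdowns passed the test for MRPL18, MRPL57 and MRPS21 and not for the other 5. MRPL18 (uL18m, a protein of the central protuberance) measured 68.9, 63.1 and 65.1 CPM after siNT, 56.2, 58.2 and 59.4 CPM after siYAP, and 47.0, 51.8 and 48.2 CPM after siTAZ, and the 3 groups did not overlap. It changed by -0.18 ± 0.06 after siYAP (adjusted p = 0.00648) and by -0.42 ± 0.06 after siTAZ (adjusted p = 4.62e-08), and the direct difference of -0.24 ± 0.06 passed the test (adjusted p = 0.000467). MRPL57 fell after siTAZ (-0.27, adjusted p = 0.000305) and stood at 0.01 after siYAP (adjusted p = 0.841), and the direct difference was -0.28 (adjusted p = 4.59e-05). MRPL17 fell after siTAZ (-0.23, adjusted p = 0.00576) and did not pass after siYAP (-0.13, adjusted p = 0.0851), and their direct difference did not pass either (-0.10, adjusted p = 0.2).

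Several members fell after each knockdown with no called difference between the knockdowns. MRPL14 (uL14m, at the interface of the subunits) changed by -0.37 ± 0.07 after siYAP and -0.35 ± 0.07 after siTAZ (adjusted p = 1.71e-06 and 1.65e-05), with a direct difference of 0.02 ± 0.07 (adjusted p = 0.816). MRPS27, a pentatricopeptide repeat protein, changed by -0.28 after siYAP and -0.28 after siTAZ (adjusted p = 9.14e-07 and 6.63e-06), with a direct difference of 0.01 ± 0.05. MRPS12 (uS12m, at the decoding centre) changed by -0.22 and -0.29 (adjusted p = 0.0159 and 0.00508). Its call was lost after either knockdown when siNT replicate 3 was left out (adjusted p = 0.0993 after siYAP and 0.0614 after siTAZ). Leaving out replicate 3 of the knockdown itself also lost each call, at adjusted p = 0.0613 for siYAP and 0.0615 for siTAZ. MRPS12 shares 16.3% of its exon bases with SARS2 on the opposite strand, and SARS2 changed by -1.15 after siYAP and 0.16 after siTAZ. No source used here states whether counting used strand, so reads of such pairs cannot be told apart.

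**Figure D3:**
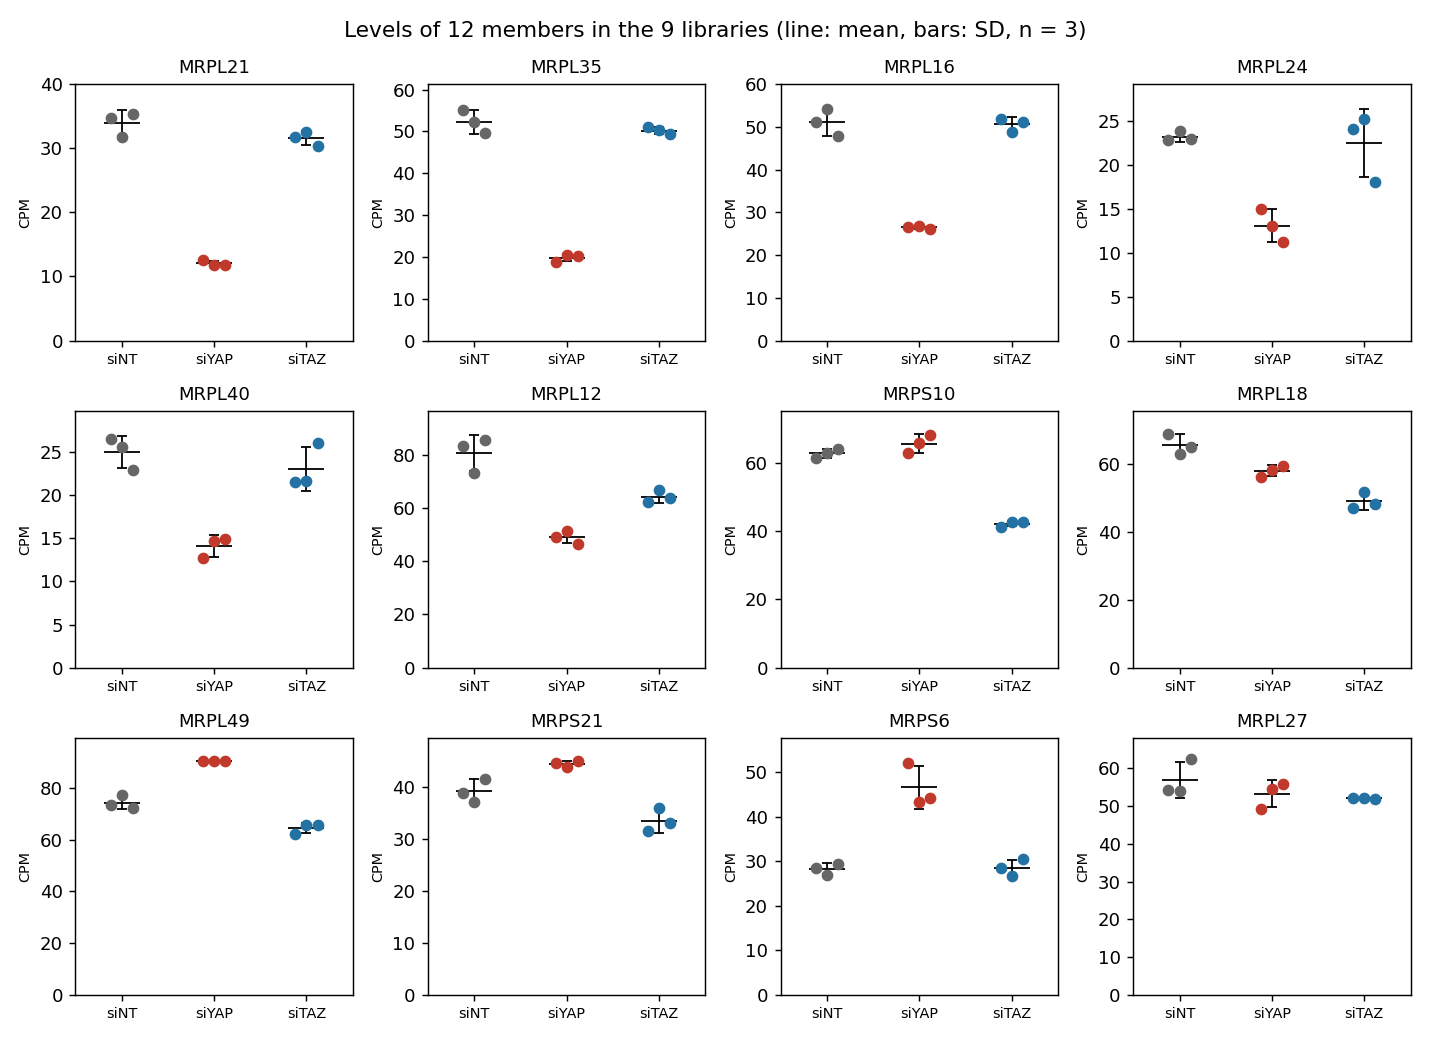
Each panel is 1 member, each point 1 library, the y axis is CPM from 0, and lines and bars are the mean and SD of 3 libraries. MRPL21, MRPL35 and MRPL16 are low after siYAP only among these groups, MRPS10 is low after siTAZ, and MRPS6, MRPL49 and MRPS21 are highest after siYAP.

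A small number of members rose after siYAP. MRPS6 (bS6m, a protein of the small subunit's platform, ENSG00000243927, GRCh38 chromosome 21, bases 34073224 to 34143034, plus strand) measured 28.5, 27.0 and 29.5 CPM after siNT, 52.1, 43.3 and 44.3 CPM after siYAP, and 28.4, 26.8 and 30.4 CPM after siTAZ. The rise of 0.72 ± 0.08 (adjusted p = 2.34e-12) was the only one over 1.5-fold among members, and siTAZ stood at 0.01 (adjusted p = 0.946). SLC5A3 shares 6.35% of MRPS6's exon bases on the same strand, and SLC5A3 itself did not pass the test (-0.01, adjusted p = 0.968).

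MRPL34 (bL34m) measured 22.8, 24.4 and 25.6 CPM after siNT, 31.0, 33.1 and 34.5 CPM after siYAP and 25.3, 24.4 and 21.8 CPM after siTAZ, a rise of 0.43 ± 0.09 after siYAP (adjusted p = 8.4e-06). It shares 13.2% of its exon bases with ABHD8 on the opposite strand, which rose by 0.79. MRPL50 (0.41 ± 0.09, adjusted p = 5.46e-05) and MRPS33 (0.41 ± 0.09, adjusted p = 5.57e-05), both mitochondria-specific proteins, rose with the siYAP libraries above all siNT libraries. Exon overlaps with another counted gene were found for 35 members, and 18 of them share at least 10% of their exon bases. The part of these overlaps in the results was not tested.

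MRPL49 and MRPS21 were called in opposite directions. MRPL49 measured 73.3, 77.0 and 72.2 CPM after siNT, 90.5, 90.5 and 90.5 CPM after siYAP, and 62.3, 65.5 and 65.7 CPM after siTAZ. It rose by 0.29 ± 0.05 after siYAP (adjusted p = 2.49e-06) and fell by 0.20 ± 0.05 after siTAZ (adjusted p = 0.00201), and the direct difference of -0.49 ± 0.05 passed (adjusted p = 1.81e-12). The 3 groups did not overlap. MRPL49 shares 11.6% of its exon bases with SYVN1, which rose by 0.55 after siYAP, and 9.16% with FAU (-0.03), both on the opposite strand. MRPS21 (bS21m) measured 39.0, 37.2 and 41.7 CPM after siNT, 44.8, 44.0 and 45.1 CPM after siYAP, and 31.6, 36.1 and 33.1 CPM after siTAZ. Its rise of 0.18 ± 0.07 after siYAP (adjusted p = 0.0218) and its change of -0.23 ± 0.07 after siTAZ (adjusted p = 0.0109) each lost the call under some settings. After siYAP these were the fit without a low-count filter (adjusted p = 0.0806) and those without siNT replicate 1 or 2 or siYAP replicate 1 or 3 (adjusted p = 0.0557 to 0.151). After siTAZ they were those without siNT replicate 3 or siTAZ replicate 1 (adjusted p = 0.0845 and 0.0806). The direct difference in MRPS21 was -0.41 ± 0.07 (adjusted p = 1.23e-06).

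The MRPS18 genes are 3 paralogs whose proteins occupy different places in the ribosome. None was called after siYAP: MRPS18A stood at -0.24 (adjusted p = 0.0798), MRPS18B at 0.00 (adjusted p = 0.989) and MRPS18C at 0.16 (adjusted p = 0.652). None was called after siTAZ, at -0.05, -0.18 and -0.20. MRPS18C was scarce, at 2.48, 2.36 and 2.66 CPM after siNT, and shares 40.2% of its exon bases with ABRAXAS1 on the opposite strand. MRPS18B was lower after siTAZ than after siYAP (-0.18, adjusted p = 0.0316), a call lost without a low-count filter and without any 1 of 5 knockdown libraries (adjusted p = 0.0517 to 0.145).

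Levels per kilobase compare members only roughly, because the length is that of 1 transcript per gene. For MRPL42 that length was 15582 bases, so its 65.2 CPM after siNT became 4.18 CPM per kb. After siNT the median was 26.4 CPM per kb among MRPL and 23.3 CPM per kb among MRPS genes. The highest were MRPL27 (79.4 CPM per kb), MRPL12 (78.5) and MRPS24 (75.4), and the lowest with counts were MRPL23 (1.49) and MRPS18C (1.52). MRPL53 had 0 counts in all 9 libraries and was not tested, which allows up to 3 counts, or 0.157 to 0.177 CPM, per library for counting error only. Of its exon bases, 45.2% are shared with CCDC142 on the same strand.

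Promoter sequence shows what many members have in common beyond the naming rule. Mitochondrial ribosomal protein genes often have promoters with sites for ETS factors such as GABPA, for YY1 and for NRF1. RefSeq windows (GRCh38.p14) from 250 bases before to 50 bases after a transcription start were given for 69 members, with 85 windows in all. The ETS letters CCGGAAG, on either strand, occurred in 36.5% of MRPL and 42.4% of MRPS windows, against 12.8% of the windows of all protein-coding genes and 10.3% of all windows. The YY1 letters AAGATGG occurred in 32.7% and 30.3%, against 6.04% and 5.84%. The NRF1 letters GCATGCGC occurred in 7.69% and 6.06%, against 3.74% and 3.05%. None of the 3 words contains another, and a match is a description of letters, not a bound site.

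The segments below, each 29 bases read 5′ to 3′ along the gene's strand with the match in capitals, are shown for 3 genes that fell after siYAP, for MRPS10, which fell after siTAZ, and for MRPL50, which rose after siYAP.
MRPL16 (chr11:59810767-59810795, minus strand, ETS from base -6 relative to the start): agtgaacacaaCTTCCGGccccactgagc
MRPL40 (chr22:19432523-19432551, plus strand, ETS from base -11): ggggcgcacgcCCGGAAGcggcgagggta
MRPL11 (chr11:66438807-66438835, minus strand, YY1 from base +25): acctctggcccAAGATGGtggcgcccaga
MRPS10 (chr6:42217866-42217894, minus strand, ETS from base -22): ccgctgtaaccCCGGAAGcaatcctgaga
MRPS10 (chr6:42217835-42217863, minus strand, YY1 from base +10): tcgggaccggcAAGATGGcggcgcggaca
MRPL50 (chr9:101398578-101398606, minus strand, YY1 from base +24): ggatctcatcgAAGATGGcggcgcgatct
The MRPL40 match reads CCGGAAG on the gene's strand, and the MRPL16 match is its reverse complement. Members with at least 1 of the 3 words in a window were 28 of 42 that fell after siYAP, 13 of 20 that were not called and 4 of 6 that rose, so the words were found in all 3 classes. In all, 49 members fell, and those without a window include MRPL21, MRPL35 and MRPL23, the steepest falls.

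The factors named for these words were themselves measured. GABPA fell after siYAP from 60.1, 64.2 and 61.9 CPM to 42.8, 42.0 and 42.2 CPM (-0.55 ± 0.06, adjusted p = 3.14e-12) and stood at 0.09 after siTAZ (adjusted p = 0.261). NRF1 changed by -0.52 ± 0.10 after siYAP (adjusted p = 7.2e-06) and -0.09 after siTAZ (adjusted p = 0.534). YY1 changed by -0.28 after siYAP and -0.15 after siTAZ (adjusted p = 1.71e-07 and 0.0062). Whether these levels play a part in the members' changes was not tested.

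Short words in 3′ UTRs were also read, because an earlier analysis of these data found that genes holding GGATAA fell more after siYAP and genes holding ATGAAC more after siTAZ. In the 3′ UTRs of at least 50 bases (GENCODE 29, 1 transcript per gene), GGATAA occurred in 9 of 76 members (11.8%), against 22.7% of 13055 genes. Of the 9 members with it 7 fell after siYAP, and of the 67 without it 42 fell. Over all genes searched, 1366 of 2964 with the word and 3485 of 10091 without it fell. The word was picked from these same data, so finding it in members that fell is not independent evidence. MRPL42 (-0.32) holds it, and so do MRPL17 (-0.13) and MRPS18B (0.00), which were not called after siYAP. Both of the steepest falls hold it, as these sites show, with the word in capitals on the gene's strand.
MRPL21 (3′ UTR bases 24 to 29 of 55): tacttacaaaaGGATAAaaataa
MRPL35 (3′ UTR bases 67 to 72 of 3126): tttgcaaaaatGGATAAgtacaa
MRPL18, which had the largest called fall among MRPL genes after siTAZ, holds ATGAAC (3′ UTR bases 296 to 301 of 313): aaaggcatattATGAACtcttat
MRPL16, MRPL24 and MRPL40 hold no GGATAA in the transcript read, and neither does MRPS10 hold ATGAAC. The latter word occurred in 9 of 76 members (11.8%), against 27.2% of genes, and 3 of those 9 and 14 of the other 67 fell after siTAZ. Over all genes searched, 1000 of 3551 with it and 1679 of 9504 without it fell. The 42 of 67 members without GGATAA that fell after siYAP were 30 MRPL and 12 MRPS genes. Among all searched genes without it, 3485 of 10091 fell. Whether the words play a part in any change was not tested.

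Proteins of the mitochondrial ribosome that carry other symbols were tested as a list of 5. PTCD3 (mS39), which helps the messenger RNA enter the small subunit, measured 100.7, 107.5 and 107.0 CPM after siNT, 69.1, 63.4 and 66.9 CPM after siYAP, and 103.0, 111.4 and 109.9 CPM after siTAZ, a change of -0.66 ± 0.05 after siYAP (adjusted p = 3.35e-18). AURKAIP1 (-0.34) and GADD45GIP1 (-0.29) also fell, and DAP3 (mS29), a GTP-binding protein of the head, rose by 0.22 ± 0.05 (adjusted p = 0.000342). After siTAZ, GADD45GIP1 fell (-0.22, adjusted p = 0.00149) and the other 4 did not pass the test.

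Across all genes tested, the shares against which the following lists are read were 33.4% lower and 33.8% higher after siYAP, and 18.2% lower and 16.4% higher after siTAZ. Among factors that assemble the ribosome and process its RNA, 29 were tested: 9 (31%) fell and 3 rose after siYAP (median -0.025), and 8 (27.6%) fell and 3 rose after siTAZ (median -0.054). The share that fell after siYAP was near that of all genes. ERAL1, a chaperone of the small subunit's 12S rRNA, was among the steep falls, from 62.1, 66.0 and 65.5 CPM to 35.1, 31.5 and 33.0 CPM after siYAP (-0.96 ± 0.07, adjusted p = 2.15e-20). C1QBP changed by -0.76 after siYAP and -0.34 after siTAZ (adjusted p = 1.25e-22 and 6.32e-09). LRPPRC, which stabilises mitochondrial messenger RNAs, rose by 0.36 after siYAP (adjusted p = 3.15e-12).

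Of 15 mitochondrial translation factors, 8 (53.3%) fell and 2 rose after siYAP, and 2 (13.3%) fell and 1 rose after siTAZ. GFM2, which acts in ribosome recycling, fell from 68.0, 61.3 and 63.0 CPM to 29.1, 24.2 and 29.5 CPM after siYAP (-1.22 ± 0.07, adjusted p = 1.58e-23). MTFMT, which formylates the initiator methionine, changed by -1.14 ± 0.12 (adjusted p = 5.9e-13), whereas the elongation factor GFM1 rose by 0.36 (adjusted p = 7.36e-09).

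Of 20 genes that charge mitochondrial tRNAs, 11 (55%) fell and 1 rose after siYAP, and 3 (15%) fell and 2 rose after siTAZ. GATC, a subunit of the glutaminyl-tRNA amidotransferase, changed by -1.46 ± 0.09, VARS2 by -0.90 ± 0.07 and LARS2 by -0.60 ± 0.06 after siYAP (adjusted p = 2.76e-23, 5.03e-17 and 7.05e-14). HARS2 rose by 0.34 (adjusted p = 0.000109). After siTAZ, VARS2 rose by 0.30 (adjusted p = 0.000259).

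Among 15 regulators of mitochondrial transcription and biogenesis, 6 (40%) fell and 4 (26.7%) rose after siYAP, near the shares of all genes. TFAM, which packages mitochondrial DNA and activates its transcription, measured 70.3, 71.0 and 66.0 CPM after siNT, 11.9, 11.8 and 11.7 CPM after siYAP, and 71.2, 75.03 and 68.9 CPM after siTAZ (-2.55 ± 0.07 after siYAP, adjusted p = 1.11e-39). Its 3′ UTR holds 3 copies of GGATAA. Among the genes named in these lists, GATC (-1.46), MTFMT (-1.14), ERAL1 (-0.96), PTCD3 (-0.66), LARS2 (-0.60) and YY1 (-0.285) hold the word and fell after siYAP. GFM2 (-1.22), VARS2 (-0.90), C1QBP (-0.76), GABPA (-0.55), NRF1 (-0.52), AURKAIP1 (-0.34) and GADD45GIP1 (-0.285) fell without it. HARS2 (0.34) holds it and rose, and PPARGC1A, ESRRA, GFM1, LRPPRC and DAP3 rose without it. The part of the word was not tested. ESRRA rose by 1.01 ± 0.08 after siYAP, and PPARGC1A, scarce at 0.226 to 1.04 CPM after siNT, rose after both knockdowns, by 1.94 ± 0.41 and 1.37 ± 0.42 (adjusted p = 2.88e-05 and 0.00797).

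**Figure D4:**
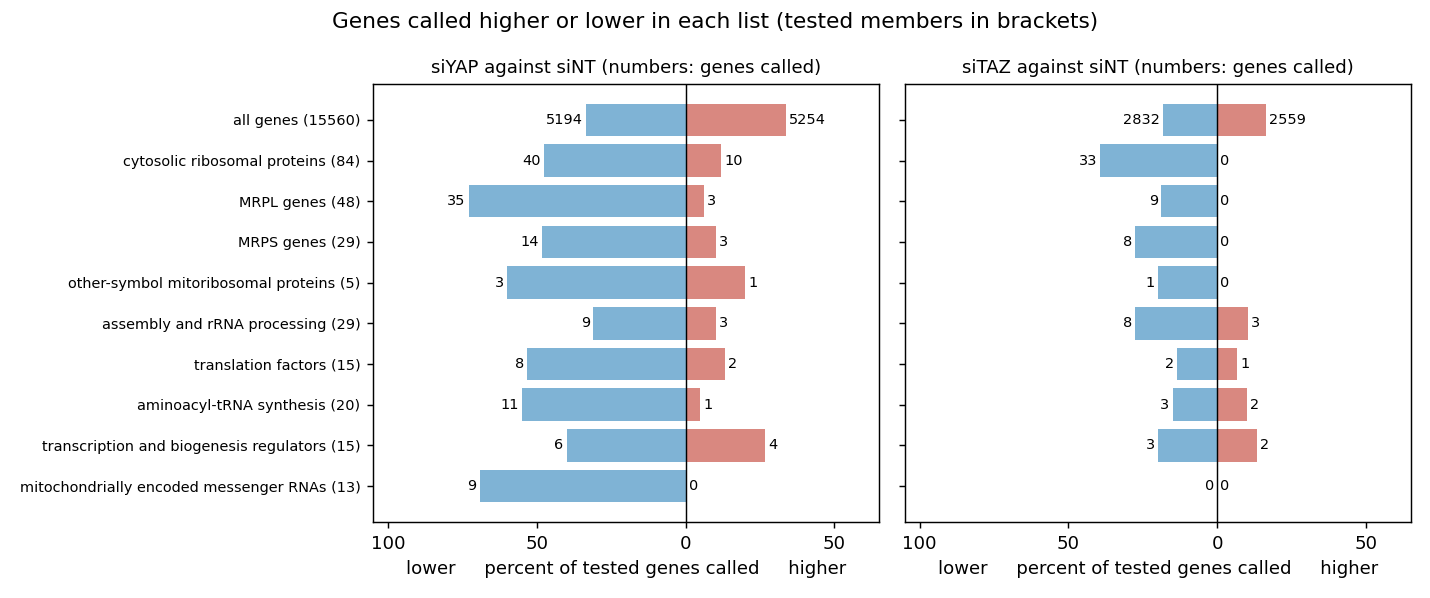
Bars give the percent of tested genes in each list called lower (left, blue) or higher (right, red) at an adjusted p under 0.05, with the number of genes at the bar's end and the number tested in brackets. After siYAP the MRPL bar (35 of 48 lower) is the longest of those to the left, and after siTAZ that of cytosolic ribosomal proteins (33 of 84) is.

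Messenger RNAs encoded in mitochondria, which this ribosome translates, were measured in the same libraries. After siYAP 9 of 13 fell and none rose, with a median of -0.631. After siTAZ edgeR called none, counted 0 at an unadjusted p under 0.05, and DESeq2 called none. They made up 1.37% ± 0.11 of gene counts after siNT, 0.876% ± 0.175 for siYAP and 1.53% ± 0.11 for siTAZ (SD, n = 3). MT-CO3 (-1.03), MT-CO2 (-0.96) and MT-CO1 (-0.94), subunits of cytochrome c oxidase, were lower after siYAP, with adjusted p = 0.00175, 0.000614 and 0.00147.

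Cytosolic ribosomal proteins give a comparison with the other ribosome of the cell. Of 84 tested, 40 fell and 10 rose after siYAP (median -0.129), and 33 fell after siTAZ (median -0.089), with none called higher by edgeR or DESeq2 and 1 higher at an unadjusted p under 0.05 in edgeR. The share lower after siYAP was 47.6%, below the 72.9% of MRPL genes and close to the 48.3% of MRPS genes. After siTAZ it was 39.3%, above the 18.8% of MRPL and the 27.6% of MRPS genes. The median changes after siTAZ were -0.089, -0.095 and -0.124 in that order, so the larger share did not go with a larger fall. Cytosolic genes were also more abundant, at 26512 CPM summed over 86 genes after siNT, against 2015 CPM over 49 MRPL genes. Small changes can pass the test more readily at higher counts, but the part of level in these shares was not tested. These differences between lists were not tested.

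The share of reads falling in no annotated gene moved with the groups, with 4.93% ± 0.20 in siNT, 6.68% ± 0.75 in siYAP and 5.57% ± 0.05 in siTAZ libraries (SD, n = 3), and its part in the members' changes was not tested.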

How the data were processed

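Total RNA of LX2 cells went into an mRNA library kit, per the labels' protocols. The authors deposited 9 files of unscaled counts, each for a library, by Ensembl ID. The submitters' processing notes name STAR 2.5.0c, HTSeq, Trim Galore, Picard and SAMtools. The build named there is mm10, a mouse build, while the gene IDs are human. Annotation release and strand setting are not given in the sources used here. Rows for reads in no feature or in several were left out of totals.

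The members, lists and 3′ UTR words were chosen with earlier results of these data known. IDs were named from a gene name table (36366) or GENCODE 29 (219). Gene positions and overlaps are those of GENCODE 29 on GRCh38, 1 transcript per gene served for lengths and 3′ UTRs, and promoter windows are from RefSeq.

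Counts were fitted in R 4.3.3 with edgeR 4.0.16 (filterByExpr, TMM, robust quasi-likelihood) over all 9 libraries, and 15560 genes were tested. Each SE was derived as the size of the log2 change divided by the square root of the test's F statistic. Alternatives were DESeq2 1.42.0, 2 other scalings, 2 other filters, a replicate block and each library left out. Named members were, per comparison, the 6 largest called rises and falls without overlap, opposite calls, MRPS18 paralogs and the extremes per kilobase. Others were named by role, or after their values were seen. On simulated counts of 15560 genes for siYAP against siNT, 17 of 50 genes changed by 1.2-fold and 34 of 50 by 1.5-fold were recovered. Only 200 genes, of any level, were changed there, while 5254 genes rose and 5194 fell in the data. The adjusted p is stricter where few genes change, so these shares do not give the recovery among members.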

Additional observations from a re-analysis of the deposited data

Results flagged for a closer look

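Reads that fell in no annotated gene, which no comparison above uses, were more frequent in the knockdown libraries than in any siNT library. They made up 6.68% on average after siYAP and 5.57% after siTAZ, and the highest siNT library had 5.13%. This was a measure outside the gene counts and was not tested.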

How the results depend on the processing

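Each count of MRPL or MRPS genes called stayed within 1.5 times its value under every alternative run, and no named member reversed. Leaving out 1 library at a time gave 31 to 35 MRPL and 13 to 16 MRPS genes lower after siYAP, and 7 to 11 and 6 to 9 lower after siTAZ. DESeq2 called 34 MRPL and 14 MRPS genes lower after siYAP. Upper-quartile scaling called 33 MRPL genes lower and moved the median of all genes from 0.021 to 0.053. Calls of MRPL23, MRPS12, MRPS21, MRPS9 and MRPS18B were lost under the settings given above, and the cause was not tested beyond the loss of a library or the change of filter. Alternatives for subunits by structure and for 3′ UTR words were chosen after seeing the data.

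Deviations of same-numbered libraries showed little correlation, from -0.014 to 0.054, and those of differently numbered libraries ran from -0.042 to 0.047. Such values cannot show whether cultures were handled in numbered sets, so a replicate block was also fitted. With the replicate block, 35 MRPL and 14 MRPS genes were lower after siYAP, and 9 and 8 after siTAZ, and no count of calls moved by over 1.5 times. Libraries of this depth limit MRPL53, MRPL23 and MRPS18C most.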
